A study of Mus musculus with 8 samples.

Results

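The CXC chemokines other than Cxcl13 were followed as a family of 10 genes, Cxcl1, Cxcl2, Cxcl5, Cxcl9, Cxcl10, Cxcl12, Cxcl14, Cxcl15, Cxcl16 and Cxcl17, in mouse lung. They were taken by gene symbol and are 10 of the 52636 genes that were counted. Lung RNA of male wild-type C57BL/6 mice was sequenced in 8 libraries, 2 per group. Control mice were given PBS by the airway at 10 and from 12 weeks of age, and the COPD mice model received elastase (porcine pancreatic elastase, PPE) at 10 weeks and then LPS at 100 µg per dose from 12 weeks. Either set of mice was fed the control diet or a diet with 2% TJ-41 (hochuekkito, a Japanese herbal medicine) from 8 weeks. The 4 groups were therefore control diet-fed control mice, TJ-41-fed control mice, control diet-fed COPD mice and TJ-41-fed COPD mice. Elastase degrades the alveolar wall and LPS is a bacterial product that sets off inflammation, so the model is an injury of the whole lung and not of a single cell type. The sources used here do not say how many mice stood behind a library or when the lungs were taken, and p-values therefore measure only the spread between libraries, which may be technical.

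Chemokines are small secreted proteins that guide leukocytes through receptors on the leukocyte surface. Cxcl1, Cxcl2, Cxcl5 and Cxcl15 carry the ELR motif of the neutrophil attractants, and the first 3 act through Cxcr2. Cxcl9 and Cxcl10 are made in response to interferon and call in activated T cells and NK cells through Cxcr3. Cxcl12 is the constitutive ligand of Cxcr4 and is also bound by the scavenging receptor Ackr3, Cxcl14 is made by epithelia and stroma at rest, Cxcl16 is a membrane-bound ligand of Cxcr6 that Adam10 and Adam17 cut from the cell, and Cxcl17 is a mucosal chemokine of the airways. In lung, Cxcl15 (lungkine) is known as a product of the bronchial and alveolar epithelium.

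Most of the family sits in 1 stretch of chromosome 5 (GRCm38, GENCODE release M21). Cxcl5 lies at chr5:90759360-90761624, Cxcl15 at chr5:90794534-90803067, Cxcl1 at chr5:90891241-90893115 and Cxcl2 at chr5:90903871-90905938, all on the plus strand. Cxcl9 at chr5:92321347-92328079 and Cxcl10 at chr5:92346638-92348889 lie next to each other on the minus strand of the same chromosome. The others are scattered, with Cxcl12 at chr6:117168535-117181367 on the plus strand, Cxcl14 at chr13:56288643-56296551, Cxcl16 at chr11:70453983-70459984 and Cxcl17 at chr7:25400053-25412886, the last 3 on the minus strand.

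Promoters are shown for Cxcl1, Cxcl2, Cxcl9 and Cxcl10, the members with the highest log2 fold changes of the model on the control diet (1.70 to 3.08). RefSeq windows of GRCm38.p6 were found for 7 of the 10 members, all but Cxcl5, Cxcl16 and Cxcl17, and the 250 bases before the start are given 5′ to 3′ on the gene's own strand. Capitals mark matches on either strand to the kappaB consensus (the site of NF-kB), to GAAA, any 2 bases and GAAA (an interferon-stimulated response element, ISRE) and to TATAAA. The windows are chr5:90890995-90891244 for Cxcl1, chr5:90903649-90903898 for Cxcl2, chr5:92328080-92328329 for Cxcl9 and chr5:92348890-92349139 for Cxcl10.
Cxcl1: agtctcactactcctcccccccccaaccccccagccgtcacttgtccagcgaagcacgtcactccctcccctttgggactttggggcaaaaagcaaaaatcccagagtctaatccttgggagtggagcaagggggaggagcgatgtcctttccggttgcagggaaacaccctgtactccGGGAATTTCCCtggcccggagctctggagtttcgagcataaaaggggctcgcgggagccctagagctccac
Cxcl2: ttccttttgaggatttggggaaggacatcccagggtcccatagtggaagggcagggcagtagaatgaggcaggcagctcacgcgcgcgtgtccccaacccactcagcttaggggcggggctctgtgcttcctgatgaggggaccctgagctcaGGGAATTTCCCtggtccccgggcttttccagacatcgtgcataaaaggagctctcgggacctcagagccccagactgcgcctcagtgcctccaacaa
Cxcl9: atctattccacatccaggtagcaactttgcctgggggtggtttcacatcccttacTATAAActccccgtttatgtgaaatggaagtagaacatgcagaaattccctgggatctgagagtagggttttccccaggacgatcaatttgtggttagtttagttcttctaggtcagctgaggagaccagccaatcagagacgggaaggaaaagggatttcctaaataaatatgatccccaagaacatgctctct
Cxcl10: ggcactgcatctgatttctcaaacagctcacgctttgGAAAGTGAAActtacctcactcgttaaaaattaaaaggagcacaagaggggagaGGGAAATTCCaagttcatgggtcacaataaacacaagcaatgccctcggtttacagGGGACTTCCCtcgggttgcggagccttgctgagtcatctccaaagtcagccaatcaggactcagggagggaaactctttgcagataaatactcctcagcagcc

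Cxcl1 and Cxcl2 carried the same 11 bases, GGGAATTTCCC, at 71 to 61 and 97 to 87 bases before the start, in which 2 kappaB matches overlap. This stretch was found in 14 of the 32851 windows of the same length (0.0426%), among them those of Cxcl1, Cxcl2 and their neighbour Cxcl3. The Cxcl10 window held 2 separate kappaB matches and the ISRE. A kappaB match was present in 3.90% of all windows, an ISRE in 2.98% and TATAAA in 12.4%. Cxcl9 held no match to the kappaB consensus, the ISRE or TTCNNNGAA (an interferon-gamma activated site, in 7.02% of windows), and its only match was TATAAA at 195 to 190 bases before the start. Among the members not printed, Cxcl15 had TATAAA at 27 to 22 bases before the start, Cxcl14 had an ISRE and TTCNNNGAA, and Cxcl12 had none of these motifs. CACGTG, the E-box, occurred in 6.02% of windows and in no member's window. These are matches of letters in a fixed window, and a factor's binding was not measured.

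All 10 members passed the filter on low counts, along with 20546 genes in all. Libraries held 18767295 to 20888042 counts, and levels are given as CPM, counts scaled to library size with TMM factors, on which 3 counts correspond to 0.153 to 0.162 CPM. Replicate 2 of control diet-fed COPD mice stood apart from the other libraries. The SD of the log2 difference between the 2 libraries of that group was 0.798, against 0.394 to 0.469 in the other groups. This SD alone does not tell which of the 2 differed. Replicate 2 held the highest level of 7 of the 10 members (Cxcl1, Cxcl2, Cxcl9, Cxcl10, Cxcl14, Cxcl16 and Cxcl17), so values of these members that rest on it are also given without it. Leaving it out was bound to lower these members in that group. The same library had the highest summed level of 6 alveolar type II markers (37180 CPM, against 18205 to 27708 CPM in the other 7) and of 6 club and airway secretory markers (32373 CPM, against 13980 to 23458 CPM), and the lowest of 7 neutrophil markers (70.7 CPM, against 148 to 359 CPM). No marker of these lists was at 0 in any library, and their part in the members' levels was not tested.

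Levels of the 10 genes were compared with each other per length, as CPM per kilobase of exon. Cxcl15 was the most abundant by a wide margin, with a mean of 771 ± 147 (SD, n = 8) CPM per kilobase. It was followed by Cxcl12 at 56.5 ± 20.5, Cxcl14 at 55.9, Cxcl17 at 35.0 and Cxcl16 at 29.8 CPM per kilobase. The inducible members were lower, with Cxcl9 at 1.66, Cxcl10 at 0.996, Cxcl1 at 0.896, Cxcl5 at 0.551 and Cxcl2 at 0.311 CPM per kilobase. In this order only 2 neighbouring pairs had ranges over the libraries that did not overlap, Cxcl15 above Cxcl12 and Cxcl16 above Cxcl9. Cxcl12 exceeded Cxcl14 in 4 of 8 libraries, and the order within the 5 lowest members held in 5 or 6 of 8 libraries for each neighbouring pair. The family thus fell into 3 tiers, Cxcl15 alone, then 4 chemokines with means from 29.8 to 56.5 and then 5 with means from 0.311 to 1.66 CPM per kilobase.

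**Figure D1:**
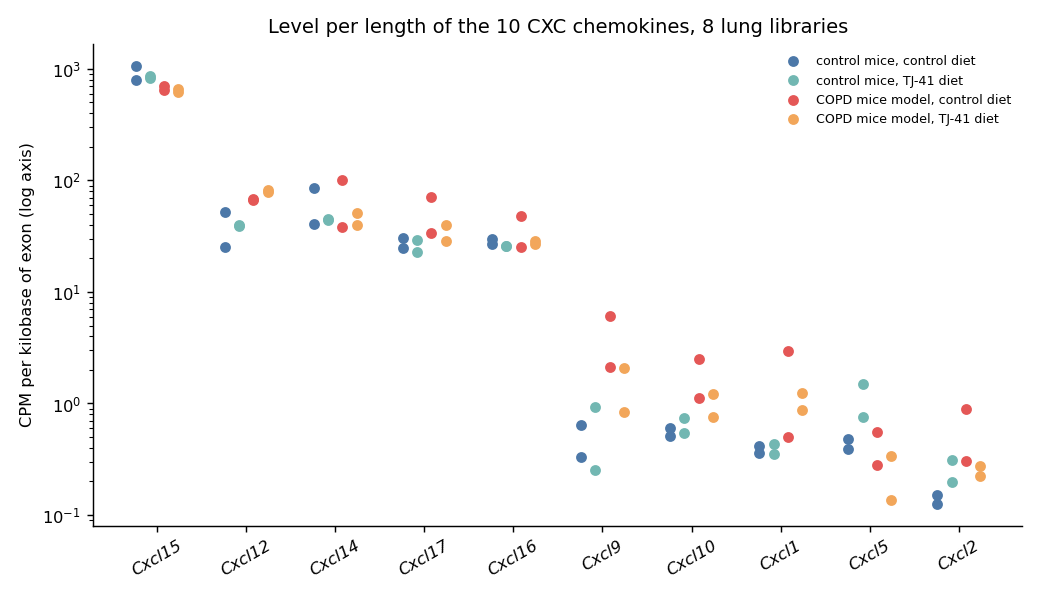
Level of each CXC chemokine per length in the 8 lung libraries, as CPM per kilobase of exon on a log axis, with genes in order of their mean and points coloured by group. Cxcl15 (mean 771) lies above all others in every library, and the 5 genes from Cxcl9 (mean 1.66) to Cxcl2 (mean 0.311) lie below the other 5.

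The first comparison set the COPD mice model beside control mice. Averaged over both diets, 8 of the 10 members had a positive log2 fold change, led by the interferon-induced Cxcl9 (2.19) and the neutrophil attractant Cxcl1 (1.79), and Cxcl5 and Cxcl15 had a negative one. No member was called at a false discovery rate (FDR) under 0.05 with a log2 fold change beyond 1, either in this average or on one diet, by the quasi-likelihood test of edgeR, adjusted over all genes by Benjamini-Hochberg. That call was made for 0.443% of all genes tested (91 of 20546) in the average, for 0.122% on the control diet and for 0.0779% on the TJ-41 diet. The smallest adjusted p of a member was 0.128, that of Cxcl12. At an unadjusted p under 0.05 stood 8 members in the average, against 10.4% of all genes, and the exceptions were Cxcl14 and Cxcl16. The same count was 7 on the control diet, against 7.70% of all genes, and 2 on the TJ-41 diet (Cxcl5 and Cxcl12), against 6.56%. Libraries did not overlap for 6 members higher and 1 lower on the control diet, against 13.6% and 14.1% of all genes, and for 4 higher and 2 lower on the TJ-41 diet, against 28.5% and 27.9%. The median log2 fold change of the members was 0.78, against -0.0017 for all genes tested. Without the library that stood apart, 6 of the 10 members were above 0 in the average, with a median of 0.45, and Cxcl14 and Cxcl16 turned below 0. An unadjusted p under 0.05 was then reached by 7 members in the average, against 12.5% of all genes, and by 4 on the control diet, against 15.4%.

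**Figure D2:**
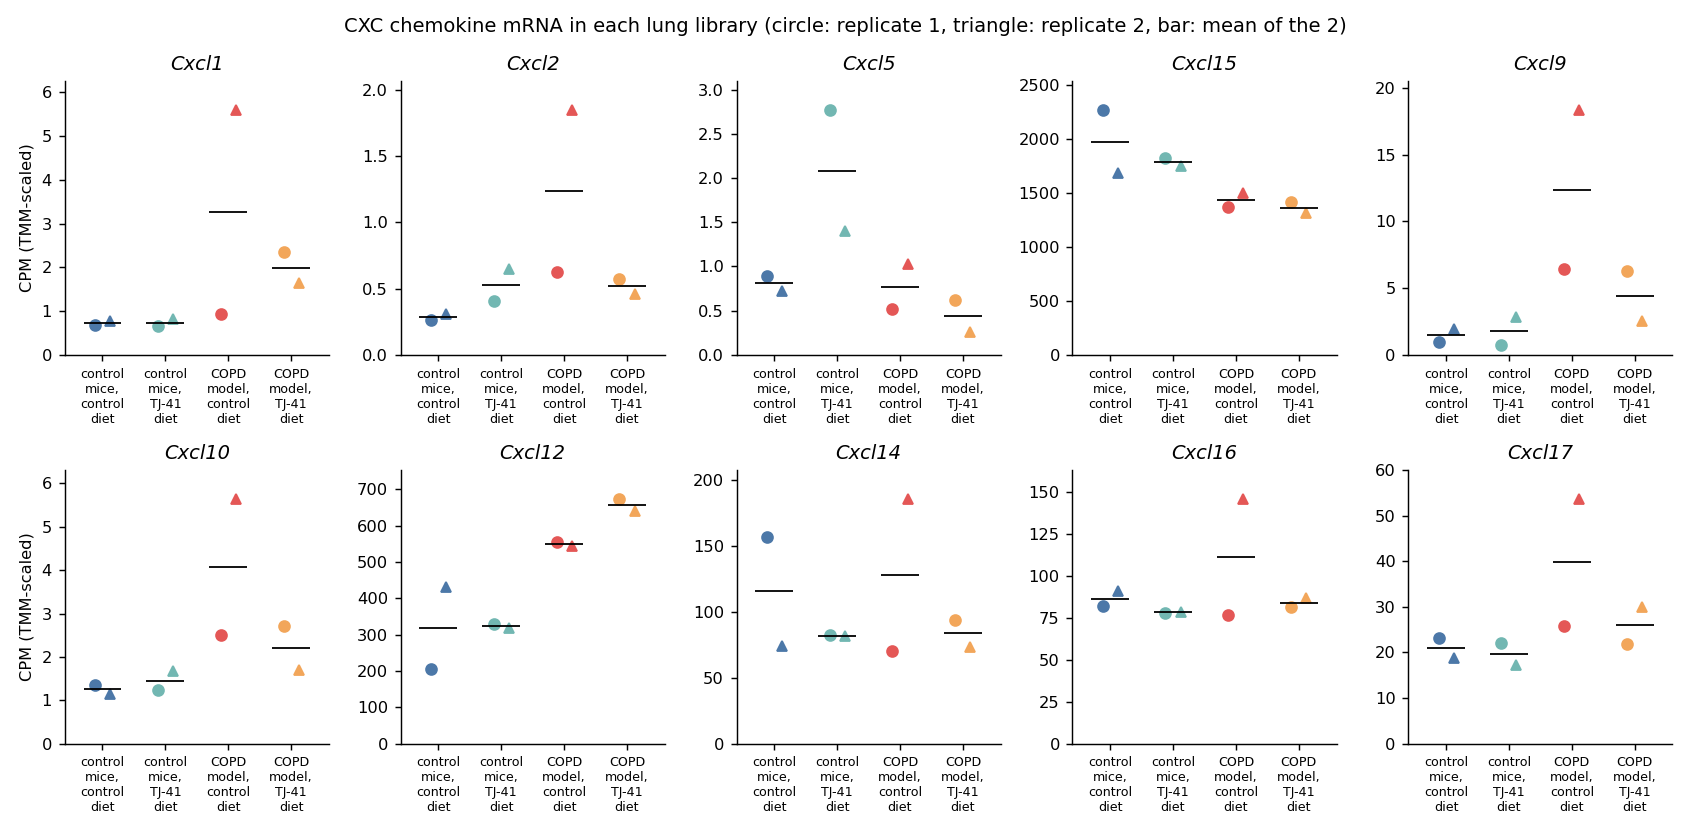
TMM-scaled CPM of each member in each of the 8 libraries, by group, on linear axes that start at 0 and differ between genes. Circles are replicate 1, triangles replicate 2 and bars the mean of the 2, and the triangle of control diet-fed COPD mice is the highest point for 7 genes, while Cxcl12 and Cxcl15 separate COPD mice from control mice on either diet.

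Among the neutrophil attractants, Cxcl1 was measured at 0.680 and 0.779 CPM in control diet-fed control mice and at 0.666 and 0.811 CPM in TJ-41-fed control mice. It was at 0.939 and 5.59 CPM in control diet-fed COPD mice and at 2.35 and 1.64 CPM in TJ-41-fed COPD mice. All 4 libraries of the model lay above all 4 of control mice, which was so in this direction for 3.35% of all genes. The log2 fold change over both diets was 1.79 ± 0.51 (SE; adjusted p = 0.233 by edgeR's quasi-likelihood test). It was 2.15 on the control diet and 1.42 on the TJ-41 diet, both with separate libraries. The control diet value was 0.36 (adjusted p = 0.767) and the average 0.90 (adjusted p = 0.248) without the library that stood apart. Cxcl1 counts were small, 13 to 18 in 5 libraries and 109 in the highest.

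Cxcl2, a close relative of Cxcl1, was the least abundant member, with 5 to 36 counts in a library. It stood at 0.262 and 0.312 CPM in control diet-fed control mice, 0.410 and 0.649 CPM in TJ-41-fed control mice, 0.626 and 1.85 CPM in control diet-fed COPD mice and 0.574 and 0.460 CPM in TJ-41-fed COPD mice. On the control diet both libraries of the model were above both of control mice, with a log2 fold change of 2.09 ± 0.64 (SE; adjusted p = 0.440 by edgeR's quasi-likelihood test). On the TJ-41 diet the libraries overlapped and the log2 fold change was -0.030, with a 95% confidence interval from -1.47 to 1.41. Leaving out the library that stood apart gave 1.11 on the control diet (adjusted p = 0.471) and took the average from 1.03 to 0.55. Of the 50-base stretches in Cxcl2 exons, 5.84% also occur in Cxcl3, so reads of these genes could not be told apart there.

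Cxcl5, made mainly by epithelial cells and platelets, showed another pattern. Its levels were 0.889 and 0.727 CPM in control diet-fed control mice, 2.77 and 1.41 CPM in TJ-41-fed control mice, 0.521 and 1.03 CPM in control diet-fed COPD mice and 0.626 and 0.256 CPM in TJ-41-fed COPD mice. The highest levels were those of TJ-41-fed control mice, and the groups on the control diet overlapped. The log2 fold change of the model was -0.061 on the control diet and -2.23 ± 0.58 (SE) on the TJ-41 diet, where the libraries separated (adjusted p = 0.429 by edgeR's quasi-likelihood test). In a fit of only the 2 groups on the TJ-41 diet, Cxcl5 was called lower, at -2.24 on the log2 scale (adjusted p = 0.0492), and 1.25% of all genes were called there. When the library that stood apart was left out, its control diet value was -0.62 and its average went from -1.15 to -1.42.

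Cxcl15 was measured with 25754 to 43275 counts in a library, so counting error was small. It was at 2264 and 1683 CPM in control diet-fed control mice, 1820 and 1752 CPM in TJ-41-fed control mice, 1365 and 1501 CPM in control diet-fed COPD mice and 1411 and 1317 CPM in TJ-41-fed COPD mice. Every library of the model lay below every library of control mice, which was so in this direction for 3.43% of all genes. The log2 fold change was -0.43 ± 0.14 (SE; adjusted p = 0.319 by edgeR's quasi-likelihood test), at -0.46 on the control diet and -0.39 on the TJ-41 diet. It was the steadiest member over the libraries, with its highest level 1.72 times its lowest, where Cxcl9 had a ratio of 23.8. The 6 alveolar type II markers summed to 18205 to 25394 CPM in control mice and 22116 to 37180 CPM in the model. Of these sums Sftpc, the most abundant, was 9504 to 14334 and 11472 to 25921 CPM, and the other 5 together were 8701 to 11060 and 10644 to 12203 CPM. On the control diet Abca3, of the same list, was at 384 and 462 CPM in control mice and 349 and 200 CPM in the model. Of the 6 markers, 4 had a log2 fold change above 0 and 2 below on that diet. On the TJ-41 diet all 6, Abca3 among them, were above 0. Their part in the level of Cxcl15 was not tested. In these bulk samples, fewer cells of a type and less RNA per cell cannot be told apart.

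Of the interferon-induced pair, Cxcl9 had the largest log2 fold change of the 10 members in the average over diets and on the control diet. Its levels were 0.994 and 1.92 CPM in control diet-fed control mice and 0.768 and 2.81 CPM on the TJ-41 diet, and 6.41 and 18.3 CPM in control diet-fed COPD mice and 6.26 and 2.56 CPM on the TJ-41 diet. The groups separated on the control diet, and on the TJ-41 diet 1 library of control mice was above 1 of the model. The log2 fold change was 3.08 ± 0.73 (SE) on the control diet (adjusted p = 0.294) and 1.30 ± 0.71 (SE) on the TJ-41 diet (adjusted p = 0.776), both by edgeR's quasi-likelihood test. Without the library that stood apart, the control diet value was 2.13 (adjusted p = 0.161), and the average of 2.19 (adjusted p = 0.133) became 1.73 (adjusted p = 0.0764). DESeq2 called Cxcl9 on the control diet (adjusted p = 0.00026) and in the average (adjusted p = 0.00014), and Cxcl1 in the average (adjusted p = 0.0334), and no other member in any comparison. It called 0.847% of all genes on the control diet and 1.21% in the average.

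Cxcl10 was at 1.36 and 1.14 CPM in control diet-fed control mice, 1.23 and 1.68 CPM in TJ-41-fed control mice, 2.50 and 5.64 CPM in control diet-fed COPD mice and 2.71 and 1.69 CPM in TJ-41-fed COPD mice. The model was above control mice in all 4 libraries, although the lowest of the model (1.69 CPM) and the highest of control mice (1.68 CPM) were 33 and 31 counts. The log2 fold change was 1.15 ± 0.33 (SE; adjusted p = 0.230 by edgeR's quasi-likelihood test) over both diets, 1.70 on the control diet and 0.60 on the TJ-41 diet. These became 0.80 in the average and 1.00 on the control diet without the library that stood apart. The exons of Cxcl10 overlap 133 bases of Art3 on the opposite strand, and Art3 had a log2 fold change of 0.089 in the same average. The related Cxcl11 had no count in the 4 libraries of control mice and 2, 8, 2 and 1 counts in those of the model, and was too low to be tested.

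Interferon-responsive genes differed in the library where they were highest. Cxcl9 and Cxcl10 were highest in replicate 2 of control diet-fed COPD mice, as were 3 of the 15 tested genes of the interferon-gamma axis (Ifngr2, Isg15 and Socs1), while 6 of them were highest in replicate 1 of that group. Isg15, a ubiquitin-like protein induced by interferon, was at 3.70 CPM in replicate 1 and 10.3 CPM in replicate 2. Gbp5, a guanylate-binding protein induced by interferon-gamma, was at 99.3 CPM in replicate 1 and 42.5 CPM in replicate 2, and Gbp2 was at 295 and 150 CPM. Ifng itself was at 0 to 20 counts in a library. Summed levels of 5 T cell markers were 49.2 to 53.0 CPM in control mice, 76.7 and 77.5 CPM in control diet-fed COPD mice and 50.9 to 69.8 CPM in TJ-41-fed COPD mice, with no marker at 0. Their part in the levels of Cxcl9 and Cxcl10 was not tested.

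Cxcl12, which retains leukocytes and guides their traffic between blood and tissue, separated the model from control mice on either diet. It was at 206 and 430 CPM in control diet-fed control mice and at 329 and 319 CPM on the TJ-41 diet, and at 555 and 543 CPM in control diet-fed COPD mice and 674 and 640 CPM on the TJ-41 diet. All 4 libraries of the model exceeded all 4 of control mice, with 543 CPM as the lowest of the model and 430 CPM as the highest of control mice. The log2 fold change was 0.90 ± 0.21 (SE; 95% confidence interval 0.43 to 1.37; adjusted p = 0.128 by edgeR's quasi-likelihood test), at 0.79 on the control diet and 1.02 on the TJ-41 diet. Leaving out the library that stood apart gave 0.92 (adjusted p = 0.0553). It was called in the average when replicate 2 of control diet-fed control mice was left out (1.22, adjusted p = 0.0264), and on the TJ-41 diet in the fit of those 2 groups alone (adjusted p = 0.00233), where 1.25% of all genes were called.

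Over the 8 libraries, log2 CPM of Cxcl12 and Cxcl15 ran in opposite directions (Pearson's r = -0.97). Within groups the order was not always opposite, and the library with the most Cxcl12 did not have the least Cxcl15. The library with the least Cxcl12, replicate 1 of control diet-fed control mice, had the most Cxcl15. Of all counts of the 10 members, Cxcl15 made up 73.1% to 82.8% in control mice and 61.0% to 64.9% in the model, with no overlap. Markers of stroma and vessels stood beside these levels, 6 fibroblast markers at a summed 2496 to 2996 CPM in control mice and 2377 to 3698 CPM in the model, and 6 endothelial markers at 3214 to 3687 and 2747 to 3121 CPM. The endothelial sums did not overlap and were lower in the model, where Cxcl12 was higher. No marker was at 0, and their part was not tested.

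Cxcl14, a chemokine of resting epithelium, varied more within groups than between them. It was at 157 and 74.0 CPM in control diet-fed control mice, 82.2 and 81.4 CPM in TJ-41-fed control mice, 70.1 and 186 CPM in control diet-fed COPD mice and 93.7 and 73.5 CPM in TJ-41-fed COPD mice. The libraries overlapped in each comparison, with one high library in each group fed the control diet. The average log2 fold change was 0.090, with a 95% confidence interval from -0.61 to 0.79, so a change within those bounds could not be told from 0 with these libraries. It was -0.34 without the library that stood apart.

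Cxcl16 was the other member near 0, at 81.9 and 90.7 CPM in control diet-fed control mice, 77.6 and 78.8 CPM in TJ-41-fed control mice, 76.6 and 146 CPM in control diet-fed COPD mice and 81.3 and 86.8 CPM in TJ-41-fed COPD mice. Apart from the single value of 146 CPM, its levels ran from 76.6 to 90.7 CPM. The average log2 fold change was 0.23 (95% confidence interval -0.18 to 0.65) with that library and -0.027 without it. Cxcl16 exons overlap 552 bases of Zmynd15 on the opposite strand, and Zmynd15 had a log2 fold change of 0.11.

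Cxcl17 was at 23.2 and 18.8 CPM in control diet-fed control mice, 22.1 and 17.3 CPM in TJ-41-fed control mice, 25.9 and 53.7 CPM in control diet-fed COPD mice and 21.9 and 30.1 CPM in TJ-41-fed COPD mice. The groups separated on the control diet and overlapped on the TJ-41 diet. Its log2 fold change was 0.92 on the control diet, 0.40 on the TJ-41 diet and 0.66 ± 0.23 (SE; adjusted p = 0.353 by edgeR's quasi-likelihood test) in the average. Without the library that stood apart, the control diet value was 0.31 and the average 0.36. The club and airway secretory markers reached their highest sum in the library where Cxcl17 did.

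**Figure D3:**
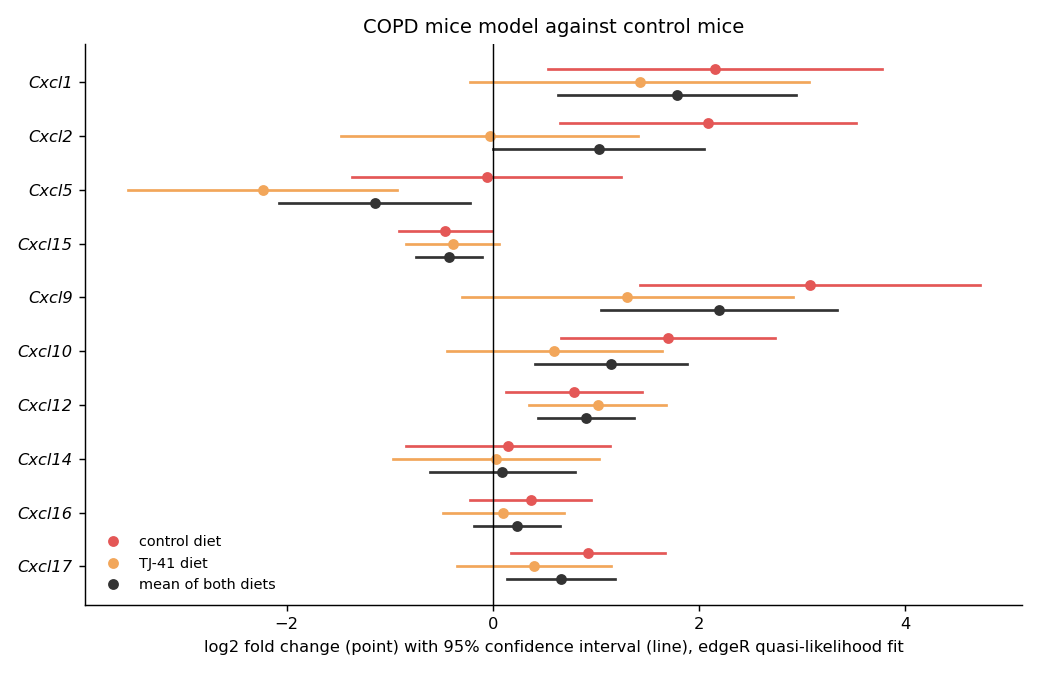
Log2 fold change of each member in COPD mice against control mice (points) with its 95% confidence interval (lines), on the control diet, on the TJ-41 diet and as the mean of both. The mean of both diets is 2.19 for Cxcl9, 1.79 for Cxcl1 and -1.15 for Cxcl5, and no member was called after adjustment over all genes.

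The count of members called depended on which library of control diet-fed COPD mice was used. With replicate 1 of control diet-fed COPD mice left out, its other library, the one that stood apart, had to be assumed to vary like the other groups. Then 5 members were called on the control diet (Cxcl1, Cxcl2, Cxcl9, Cxcl10 and Cxcl17) and 4 in the average (Cxcl1, Cxcl2, Cxcl9 and Cxcl10), in a fit that called 6.28% and 4.08% of all genes (1343 and 873). With the library that stood apart left out instead, none was called in either, against 0.659% and 1.01% of all genes, and all 10 members of the average lay between -1.42 and 1.73 on the log2 scale. Keeping every gene with at least 1 count called Cxcl9 on the control diet and Cxcl1 and Cxcl9 in the average, against 0.414% and 0.784% of all genes.

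The receptors of these chemokines were described in the same comparison, from a list of 7. No receptor was called, and 4 of the 7 had an unadjusted p under 0.05 in the average over diets, against 10.4% of all genes, with a median log2 fold change of 0.84. Cxcr3, the receptor of Cxcl9 and Cxcl10, had a log2 fold change of 0.98 ± 0.20 (SE; adjusted p = 0.0901 by edgeR's quasi-likelihood test), at 2.80 to 3.56 CPM in control mice and 5.16 to 6.97 CPM in the model. Cxcr1 had the largest value, 2.14 (adjusted p = 0.100), at 0.363 to 1.10 CPM in control mice and 1.15 to 4.50 CPM in the model. Both separated the 4 libraries of the model from the 4 of control mice, which was so in this direction for 3.35% of all genes. For Cxcr1 the gap was narrow, with the nearest libraries at 22 counts in the model and 21 in control mice.

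Cxcr6, the receptor of Cxcl16, had a log2 fold change of 0.84 (adjusted p = 0.179 by edgeR's quasi-likelihood test), at 1.41 on the control diet and 0.28 on the TJ-41 diet. Its libraries separated on the control diet, with 9.52 and 7.94 CPM in control mice and 28.3 and 18.1 CPM in the model, and overlapped on the TJ-41 diet and over all 8 libraries. Ackr1, which binds many inflammatory chemokines on venules, had 1.64 (adjusted p = 0.388 by edgeR's quasi-likelihood test) from 3 to 62 counts. On the control diet it was at 0.942 and 0.415 CPM in control mice. In the model on that diet it was at 0.469 CPM, and at 3.18 CPM in the library that stood apart. On the TJ-41 diet it was at 0.461 and 0.162 CPM in control mice and 1.25 and 1.07 CPM in the model. Cxcr2, through which Cxcl1, Cxcl2 and Cxcl5 act on neutrophils, had -0.21. Its lowest level (3.23 CPM) was in the library that stood apart, which had the highest Cxcl1. Leaving that library out was bound to raise Cxcr2 in its group, so no direction is drawn from this value. Cxcr4 (0.13) and Ackr3 (0.093), the receptors of Cxcl12, were near 0.

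Lists of genes upstream and downstream of the family had medians nearer 0. Of 15 NF-kB and cytokine genes, 14 were tested and none was called, with a median log2 fold change of 0.032. Tnfaip3, an NF-kB target that dampens the same pathway, had the smallest p above 0 (0.33, adjusted p = 0.347 by edgeR's quasi-likelihood test) and separated the groups, and Il1a had the smallest p below 0 (-0.24). Of 16 interferon-gamma axis genes, 15 were tested and none was called, with a median of 0.14 and with Gbp5 (0.55) and Ifit1 (-0.11) at the smallest p in each direction. Of 7 proteases that process chemokines, 5 were tested and none was called, with a median of -0.17, 1 above and 4 below 0. Without the library that stood apart the median was 0.012, with 3 above and 2 below 0. With all libraries Dpp4, which trims Cxcl9, Cxcl10 and Cxcl12, was at -0.40 and Mmp8 at 0.054. Of 4 other CXC ligands, 3 were tested and none was called, with a median of 0.38 set by Pf4, the platelet chemokine. All-gene shares at this call are those given above.

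**Figure D4:**
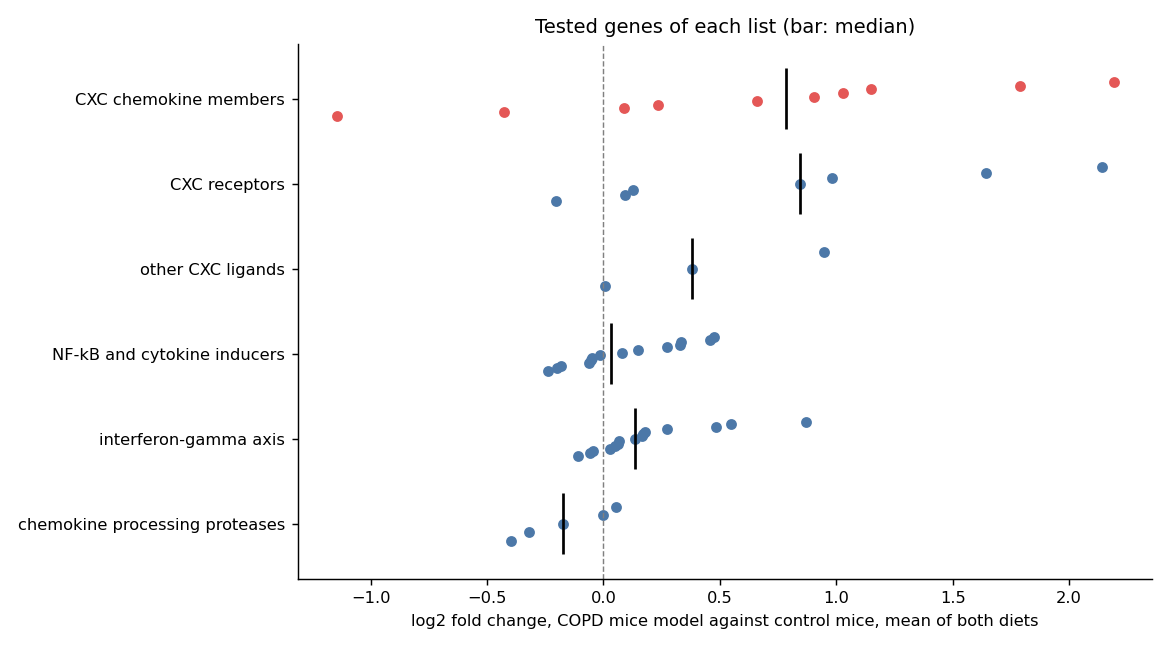
Log2 fold change between COPD mice and control mice, averaged over both diets, of every tested gene of the family and of 5 related lists, with bars at the medians. Medians are 0.78 for the members, 0.84 for the receptors, 0.38 for other CXC ligands, 0.032 for the NF-kB and cytokine genes, 0.14 for the interferon-gamma axis and -0.17 for the proteases, and no gene shown was called. Without replicate 2 of control diet-fed COPD mice the protease median is 0.012.

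The summed level of alveolar macrophage markers also differed between the model and control mice. Their 7 genes summed to 606 to 769 CPM in control mice and 936 to 1597 CPM in the model, with no overlap and no marker at 0, although none of the 7 was called and 4 of them had a positive log2 fold change. Chil3 alone was at 371 to 476 CPM in control mice and 625 to 1387 CPM in the model, and the other 6 together overlapped, at 228 to 332 and 210 to 329 CPM. Siglecf, of these 6, was at 12.2 to 21.8 CPM in control mice and 2.87 to 9.25 CPM in the model. A pair of genes of the circadian clock, chosen after their values were seen, also differed between the model and control mice. Arntl fell from 36.8 to 54.7 CPM in control mice to 2.87 to 7.67 CPM in the model (adjusted p = 0.00246 by edgeR's quasi-likelihood test), and Dbp rose from 8.76 to 21.3 CPM to 185 to 200 CPM (adjusted p = 9.1e-06). The part of neither in the members' levels was tested.

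The second comparison set the 2 diets beside each other. In control mice no member was called, as for 0% of all genes tested by edgeR, where 1.64% of genes had an unadjusted p under 0.05 and DESeq2 called 10 genes but no member. Cxcl5 was the only member at that p, with a log2 fold change of 1.36 ± 0.54 (SE; adjusted p = 0.996 by edgeR's quasi-likelihood test), both libraries on the TJ-41 diet (2.77 and 1.41 CPM) lying above both on the control diet (0.889 and 0.727 CPM). Cxcl2 also lay higher without overlap (0.87) and Cxcl16 lower (-0.14), against 19.1% of all genes in either direction. The members' median was 0.021, and the most precise estimates were those of Cxcl15 at -0.14 (95% confidence interval -0.59 to 0.31) and Cxcl16 (-0.73 to 0.45).

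In the COPD mice model, 9 of the 10 members had a negative log2 fold change when TJ-41 was fed, and the members' median was -0.66, against -0.015 for all genes. None was called, against 0.00487% of all genes (1 gene), and none had an unadjusted p under 0.05, against 4.10% of all genes. The lowest values were -1.49 ± 0.66 (SE) for Cxcl9, -1.25 ± 0.59 for Cxcl2, -0.89 ± 0.44 for Cxcl10, -0.81 ± 0.62 for Cxcl5 and -0.71 ± 0.65 for Cxcl1, each with an adjusted p = 0.991 by edgeR's quasi-likelihood test. Only Cxcl9 and Cxcl2 had both libraries on the TJ-41 diet below both on the control diet, which was so for 14.9% of all genes. The gaps were narrow, with the nearest libraries at 120 and 123 counts for Cxcl9 and at 11 and 12 counts for Cxcl2. Cxcl12 was the member above 0 (0.26, 95% confidence interval -0.40 to 0.92), with both libraries on the TJ-41 diet higher, which was so for 14.1% of all genes.

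Most of these diet values rested on the library that stood apart. Without it, Cxcl1 turned to 1.08, Cxcl14 to 0.25 and Cxcl16 to 0.13, Cxcl17 was at 0.0037, and Cxcl9 went to -0.54, Cxcl2 to -0.27, Cxcl10 to -0.19 and Cxcl5 to -0.24, while Cxcl12 stayed at 0.24. The members then split evenly, 5 above and 5 below 0, with a median of 0.00083. With only that library kept on the control diet, Cxcl1 (-1.48, adjusted p = 0.0344) and Cxcl17 (-1.04, adjusted p = 0.0265) were called by edgeR's quasi-likelihood test, in a fit that called 3.41% of all genes (728). The 15 tested genes of the interferon-gamma axis were all below 0 in this comparison, with a median of -0.37 and no call, and 6 of them had both TJ-41 libraries below both on the control diet, against 14.9% of all genes. Without the library that stood apart, 12 of the 15 were below 0, with a median of -0.45, and 8 had both TJ-41 libraries below the 1 left on the control diet, against 39.1% of all genes. Markers of other cells stood beside these values. The 5 NK cell markers were all below 0, with a median of -0.44, and -0.82 without the library that stood apart. The 5 T cell markers were also all below 0, with medians of -0.35 and -0.24. Of 5 B cell markers, 4 were below 0 and 1 above, with a median of -0.17. Without that library all 5 were below 0, with a median of -0.60. The 5 cardiac muscle markers summed to 453 to 588 CPM in control diet-fed COPD mice and 217 to 264 CPM in TJ-41-fed COPD mice, and each was lower on the TJ-41 diet without overlap, with a median log2 fold change of -1.28 and -1.07 without the library that stood apart. The 7 neutrophil markers summed to 70.7 to 226 CPM and 148 to 359 CPM, and the 6 of them tested were above 0, with a median of 0.77, which was 0.20 over the 7 tested without that library. No marker of these lists was at 0 or called, and the part of these cells in the levels of the members and of the interferon-gamma axis was not tested.

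**Figure D5:**
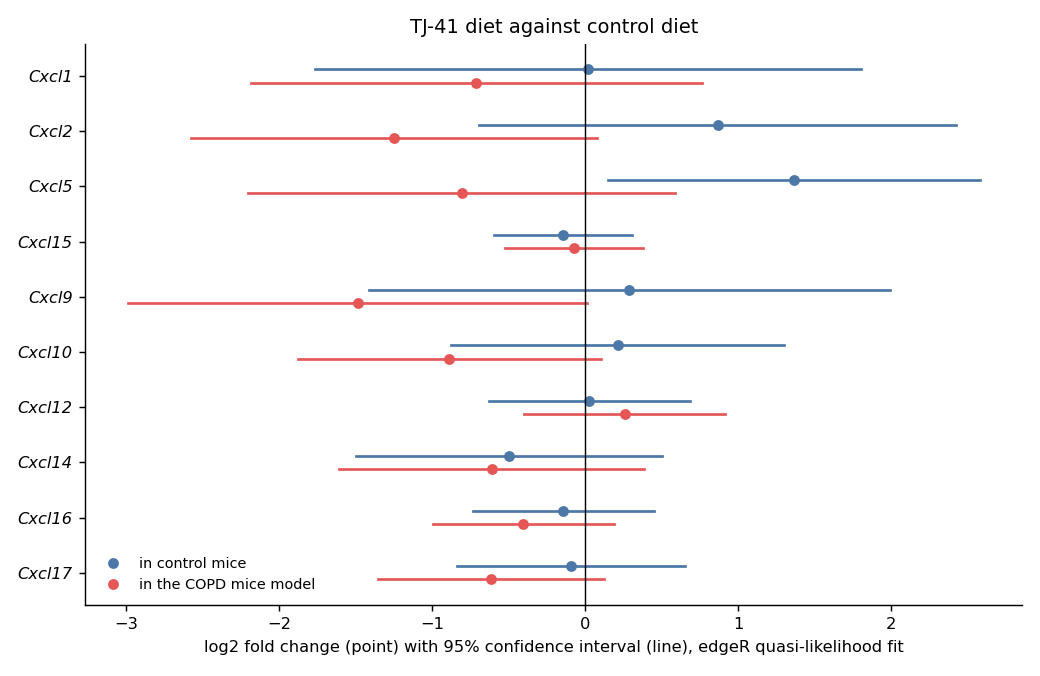
Log2 fold change of each member between TJ-41-fed and control diet-fed mice (points) with its 95% confidence interval (lines), in control mice and in COPD mice. Cxcl5 is at 1.36 in control mice and -0.81 in the model, and Cxcl2 at 0.87 and -1.25, while the intervals of all members but Cxcl5 in control mice include 0.

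The difference between the 2 diet values was tested as an interaction. No member was called, as for 0% of all genes, where 3.27% of genes had an unadjusted p under 0.05 by edgeR and DESeq2 called 17 genes but no member. Cxcl5 had a difference of -2.17 ± 0.82 (SE) and Cxcl2 of -2.12 ± 0.91 (SE), and both had an adjusted p = 0.999 by edgeR's quasi-likelihood test. Without the library that stood apart these were -1.60 and -1.13. Cxcl15 (0.073) and Cxcl14 (-0.11) had the smallest differences, and that of Cxcl14 was 0.76 without the library that stood apart.

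For each member, the 3 genes with the most similar profile of log2 CPM over the 8 libraries were sought among all genes tested, as a description. The libraries share their group, depth and composition, and the correlations ran from 0.93 to 0.99. Cxcl1 was most like Serpine2, Hist1h4i and Nnat, Cxcl2 like Gm26384, Noxa1 and Dcaf12l1, Cxcl5 like Gm9889, Gm19154 and Dlg3, and Cxcl15 like Xpnpep2, Tmem171 and Ikzf4. Cxcl9 was most like Lpar3, Gm47620 and Pdcd1, a receptor of activated T cells, and Cxcl10 like Depp1, Gm15532 and Fam76a. Cxcl12 was most like Rere, Cry2, a clock gene, and Eef2k. Cxcl14 was most like 2310030G06Rik, Rpia and Commd6, Cxcl16 like Nme1, F11r and Gm48305, and Cxcl17 like Elof1, S100a4 and Pglyrp1. No member was among the 3 nearest genes of another.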

How the data were processed

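The authors deposited 1 file per library with whole-number read counts per Ensembl gene of GRCm38 (mm10), without normalization. The submitters' processing notes name HISAT2, edgeR and mm10, and the study's methods also name the CLC Genomics Workbench. The counting program, annotation release, strand setting and handling of reads with several matches are not given in the sources used here, so overlapping genes on opposite strands could share reads. Libraries held 18767295 to 20888042 counts. Groups came from the deposited labels, which write TJ-41 as TJ41 or TJ4. Of 52636 identifiers, 52489 were found in GENCODE M21, which gave names, positions and exon lengths.

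Counts were fitted with edgeR 4.0.16 in R 4.3.3 (filterByExpr, count minimum 10, total minimum 15, TMM, quasi-likelihood test, 1 mean per group over all 8 libraries, 4 residual degrees of freedom). Genes were called where the log2 fold change was beyond 1 at a Benjamini-Hochberg FDR under 0.05. The SE was the log2 fold change divided by the root of F. Exact permutation of 2 against 2 libraries cannot go below p = 0.333 and was not used. In simulated data, 200 of 20546 genes were given log2 changes of at least 2 in size, the same on both diets. No simulated library stood apart. The mean of both diets recovered 191 and called 2 others, which says nothing about the recovery of smaller changes. Replicates differed by 11.5 to 85.2 times the counting variance, so none was a copy. The log2 differences between replicate 1 and replicate 2 had correlations of -0.234 to 0.108 from group to group. Same-numbered libraries were therefore not taken as pairs. Motifs were searched on both strands in 250 bases before RefSeq starts.

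The members and gene lists were chosen with earlier results of these data known. The genes named are the members, the CXC receptors, the called genes and the smallest p in each direction of each list, and the 3 genes most like each member (Pearson's r of log2 CPM, prior count of 2). Other names (Gbp2, Isg15, Ifngr2, Socs1, Chil3, Siglecf, Abca3, Sftpc, Ifng, Cxcl11, Art3, Zmynd15, Arntl, Dbp, Adam10 and Adam17) were added for context, after their values were seen or as background. Alternatives were DESeq2 1.42.0, RLE factors, library size alone, 2 other filters on low counts, only the groups compared, a replicate block, the FDR alone, leaving out each library, and, added after 1 library was seen to stand apart, a loess correction for gene length and GC content (span 0.5).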

Additional observations from a re-analysis of the deposited data

Results flagged for a closer look

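Cxcl2 was singled out because its 2 diet differences pointed opposite ways, with both TJ-41 libraries above both control diet libraries in control mice (log2 fold change 0.87) and both below in the COPD mice model (-1.25). The difference between them was tested as an interaction and was -2.12, with an unadjusted p of 0.044 and an adjusted p = 0.999 by edgeR's quasi-likelihood test. Cxcl2 was picked for this same pattern, so the unadjusted p adds no support of its own. The difference rests on 5 to 36 counts in a library, and in the model the nearest libraries of the 2 diets held 11 and 12 counts. Without replicate 2 of control diet-fed COPD mice the difference was -1.13.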

How the results depend on the processing

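Of 933 member values recomputed under another setting, 872 kept their direction and their side of the threshold, 41 changed sign and 20 came past the threshold. No member was called in the fit reported above, so no call could be lost. DESeq2 called 1 member on the control diet and 2 in the mean of both diets, with 174, 125 and 249 genes called in all on the control diet, on the TJ-41 diet and in the mean of both, and 10, 14 and 17 for the diet in control mice, the diet in the COPD mice model and their difference. All genes with at least 1 count gave 1 and 2 members, and 147, 89, 278, 2 and 6 genes in these comparisons other than the diet in control mice. A fit of only the groups compared gave 2 members and 248 genes on the TJ-41 diet, 5 genes for the diet in control mice and 0 for the diet in the COPD mice model. The same numbers in the labels did not pair libraries, and the replicate block called 0 members, with 21, 18 and 74 genes in the model comparisons and 0 for each diet comparison. It turned Cxcl2 on the TJ-41 diet to 0.018. The added loess correction called 28 genes on the TJ-41 diet and turned the log2 fold changes of Cxcl5 on the control diet to 0.016, Cxcl2 on the TJ-41 diet to 0.078, Cxcl14 on the TJ-41 diet to -0.17 and in the mean of both diets to -0.068, and Cxcl1 for the diet in control mice to -0.064. The cause of these shifts was not tested.

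Leaving out each library in turn gave 0 to 5 members called on the control diet, 0 to 4 in the mean of both diets and 0 to 2 for the diet in the COPD mice model, with the highest counts when replicate 1 of control diet-fed COPD mice was left out. Among all genes the ranges were 3 to 1343 on the control diet, 2 to 168 on the TJ-41 diet, 15 to 873 in the mean of both, 0 to 728 for the diet in the COPD mice model and 0 to 14 for the difference. A lone library left in a group was assumed to vary like the other groups. Log2 fold changes that changed sign in this way are given as ranges. In the model comparisons these were Cxcl5 on the control diet (-0.62 to 0.34), Cxcl2 on the TJ-41 diet (-0.32 to 0.33), Cxcl14 on the control diet (-0.72 to 0.79), on the TJ-41 diet (-0.15 to 0.20) and in the mean of both (-0.34 to 0.42), and Cxcl16 on the control diet (-0.17 to 0.75) and in the mean of both (-0.027 to 0.43). For the diet in control mice they were Cxcl1 (-0.13 to 0.14), Cxcl9 (-0.92 to 0.93), Cxcl10 (-0.021 to 0.41), Cxcl12 (-0.41 to 0.65), Cxcl14 (-0.95 to 0.14), Cxcl15 (-0.35 to 0.083) and Cxcl17 (-0.29 to 0.075). For the diet in the COPD mice model they were Cxcl1 (-1.48 to 1.08), Cxcl14 (-1.15 to 0.25), Cxcl16 (-0.79 to 0.13) and Cxcl17 (-1.04 to 0.0037). For the difference they were Cxcl1 (-1.49 to 1.07), Cxcl12 (-0.38 to 0.67), Cxcl14 (-0.75 to 0.76), Cxcl15 (-0.15 to 0.28), Cxcl16 (-0.64 to 0.29) and Cxcl17 (-0.94 to 0.11). Depth limits Cxcl2, Cxcl5, Cxcl1, Cxcl9 and Cxcl10 most, whose lowest libraries held 5 to 22 counts, and these counts cover counting error only.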
